A study of Mus musculus with 2 samples.

Results

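Cycling microglia were defined here as cells that carried transcripts of microglial identity genes together with transcripts of Mki67 and Top2a, a proliferation-associated nuclear protein and the topoisomerase that untangles sister DNA strands. The cells came from 2 droplet libraries of living CD45+ cells sorted from the thalamus of C57B6/J mice 21 days after cortical ablation injury (CAI), a surgical removal of sensory and motor cortex. All mice carried the injury and a thalamic cannula. The labels do not give their sex, and the methods state that most experiments used females. The control Ab library came from mice that received normal rat IgG in the thalamus, and the anti-CD9 Ab library from mice that received the rat antibody KMC8 against CD9, a membrane tetraspanin, both at 1.0 µg/µl from day 7 to day 19. The methods state that a thalamus library pools the cells of 4 mice, and each antibody had 1 library. The antibody, the mice and the library therefore cannot be told apart, and no test between antibodies was possible. No uninjured thalamus was analysed here. Intervals given in the text are 95% intervals of counting error only. Beside the median of a gene list, the brackets hold the medians of its genes' lower and upper bounds, not an interval of that median.

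A cell was kept with 200 to 7500 detected genes and at most 5% of its unique molecular identifiers (UMIs, each marking 1 captured transcript) in mitochondrial genes. It counted as microglia with 2 or more UMIs summed over P2ry12, Tmem119, Siglech, Gpr34, Fcrls and Sall1, no UMI of the macrophage genes Ms4a7 and F13a1, and no UMI of the T cell receptor complex genes Cd3d, Cd3e and Cd3g. This gave 2491 microglia of 11690 kept cells under control Ab and 1299 of 14455 under anti-CD9 Ab. The cycling cells were chosen by 2 or more UMIs of Mki67 and Top2a together and numbered 33 and 59, or 92 cells of 26145 in all. Cells with 0 such UMIs, 2408 and 1198, served as the non-cycling microglia, and the 50 and 42 cells with exactly 1 UMI entered neither group. The exclusion genes removed 46 of 79 and 44 of 103 cells that passed the 2 positive criteria, most of them for a Cd3 transcript. The libraries shared 54 cell barcodes, none of them among the 92 cells.

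Microglia are the resident macrophages of the brain and renew themselves by local division, mostly at a low rate that increases after injury. A dividing cell licenses its replication origins in G1, copies its DNA in S phase while it supplies new histones, and then segregates its chromosomes through the kinetochore, the spindle and the cleavage furrow. Genes of the replication steps are controlled by E2F factors and genes of mitosis by complexes that act on CHR elements, so each group tends to be transcribed together.

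Cycling cells made up 1.32% (0.914 to 1.86) of the microglia under control Ab and 4.54% (3.48 to 5.82) under anti-CD9 Ab. The difference was 3.22 percentage points (2.08 to 4.55), an interval that covers counting error and not the spread between mice. A cell with more UMIs is more likely to reach 2 UMIs of any gene, and the microglia of the anti-CD9 Ab library were deeper, with a median of 3341 UMIs against 2755. Each microglial cell with at least 2000 UMIs was therefore thinned to 2000 UMIs, which left out 828 and 273 cells. At that depth 10 of 1663 cells (0.601%, 0.289 to 1.10) and 31 of 1026 cells (3.02%, 2.06 to 4.26) reached the threshold. The share was thus lower at fixed depth in both libraries, and the intervals did not overlap at either depth. With cells of at least 1000 UMIs thinned to 1000 before the gate the shares were 0.132% (0.0272 to 0.384) and 0.738% (0.271 to 1.60), and the intervals overlapped. The difference at that depth, from 3 and 6 cycling cells, was 0.606 points (0.133 to 1.47). The rule used Mki67 and Top2a, so these shares are a description.

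**Figure D1:**
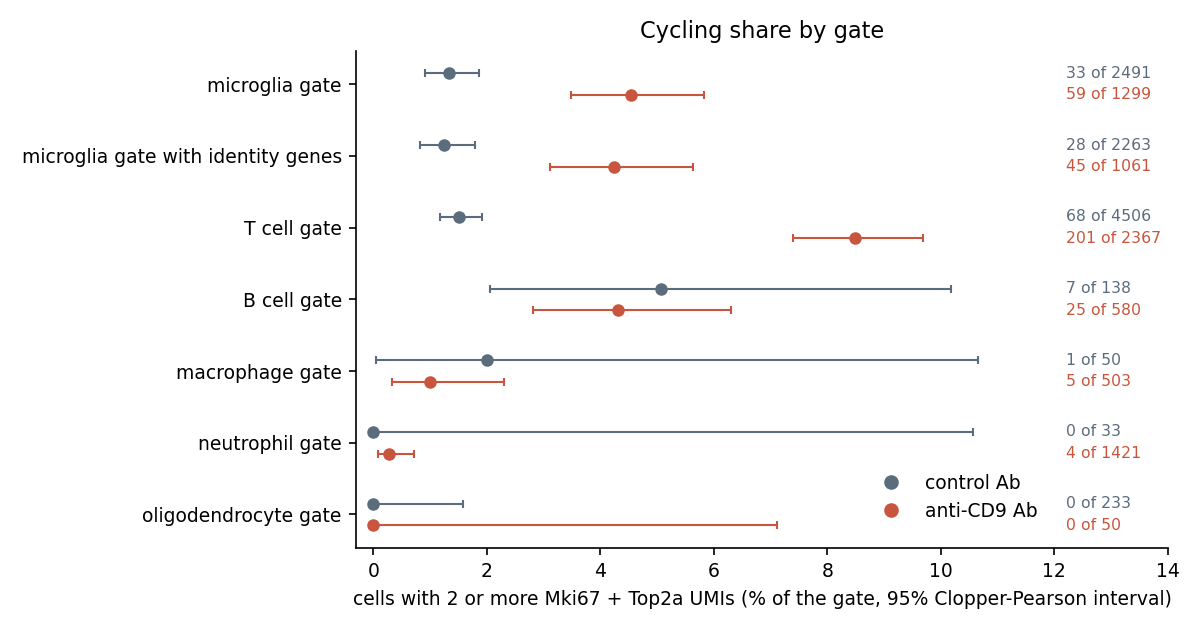
Share of cells (x axis, percent) with 2 or more UMIs of Mki67 and Top2a in each gate (y axis) for the control Ab and anti-CD9 Ab libraries, with exact (Clopper-Pearson) 95% intervals of counting error. Microglia went from 1.32% to 4.54% and cells of the T cell gate from 1.51% to 8.49%, while the B cell shares overlapped.

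The same threshold was applied to the other cell types of the sort. In the T cell gate, 68 of 4506 cells (1.51%, 1.17 to 1.91) and 201 of 2367 cells (8.49%, 7.40 to 9.69) were cycling, which became 2.51% and 7.82% at 2000 UMIs per cell, and in the B cell gate 7 of 138 (5.07%, 2.06 to 10.2) and 25 of 580 (4.31%, 2.81 to 6.30). The microglia and T cell shares were thus both higher in the anti-CD9 Ab library, while the intervals of the B cell shares overlapped. In the macrophage gate 1 of 50 cells (2%, 0.0506 to 10.6) and 5 of 503 cells (0.994%, 0.324 to 2.30) were cycling, with intervals that overlapped and a lower value under anti-CD9 Ab. In the oligodendrocyte gate, a type that should hardly divide here, 0 of 233 and 0 of 50 cells reached the threshold, which allows shares of up to 1.29% and 6% (3 counts of the total), and neutrophils had 0 of 33 and 4 of 1421. Oligodendrocytes had median depths of 1320 and 835 UMIs, and at 2000 UMIs per cell 0 of 77 under control Ab allow up to 3.90%, so this gate gives no usable background for the share of cycling microglia.

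The 33 cells of the control Ab library held 360766 UMIs and the 59 cells of the anti-CD9 Ab library 424524. Their median depths were 7344 and 6832 UMIs against 2688 and 3250 in non-cycling microglia, so the cells chosen were deeper than the rest, as the threshold favours. Median mitochondrial shares were 1.70% and 2.16% against 1.14% and 1.45%. A doublet caller marked 4 of 33 (12.1%) and 25 of 59 (42.4%) cycling cells, against 3.20% and 12.8% of the non-cycling ones. A barcode that holds 2 cells is also deep, and the part of doublets in the results was not tested beyond leaving the marked cells out. Without them the cycling shares were 1.20% (29 of 2408) and 3.05% (34 of 1113). With a mitochondrial limit of 2% they were 1.17% and 2.77%, so the difference between the libraries shrank to 1.60 points.

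Cells near the threshold were weaker in the other cell cycle genes. Of the cycling cells, 10 and 15 had exactly 2 UMIs of Mki67 and Top2a, 18 and 26 had 3 to 9, and 5 and 18 had 10 or more, up to 21 and 29. The 140 genes of the cell cycle lists used below, none of which the rule used, were summed per cell and scaled to counts per 1000000 UMIs of the cell (CPM). The median was 8314 CPM in the cells with exactly 2 UMIs under control Ab and 15322 under anti-CD9 Ab. These cells had median depths of 8008.5 and 4013 UMIs, so 2 UMIs were a larger part of a cell under anti-CD9 Ab. Just outside the threshold, the cells with 1 UMI had medians of 3057 and 5073, and non-cycling cells of 1320 and 1399. Across all members the median was 9889 (range 1325 to 28457) under control Ab and 18437 (range 1730 to 33970) under anti-CD9 Ab. The lowest members lay near the non-cycling median, so the 2 classes overlapped in individual cells.

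**Figure D2:**
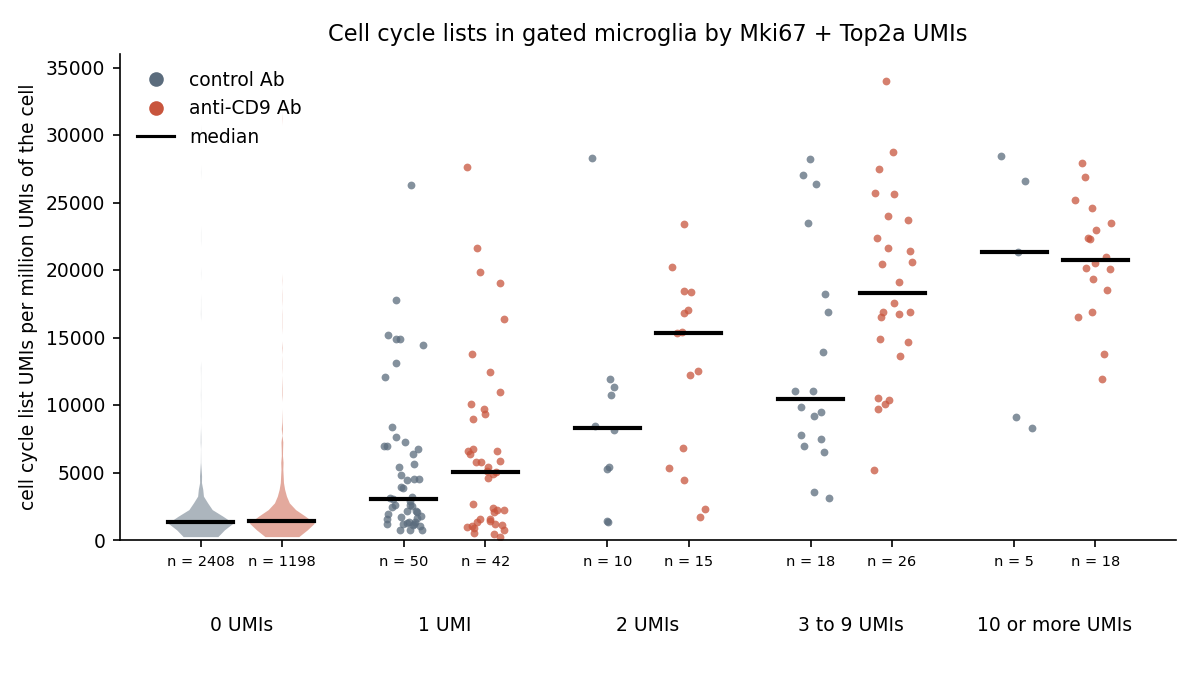
UMIs of the cell cycle lists per 1000000 UMIs of a cell (y axis) by the number of Mki67 and Top2a UMIs (x axis) in each library, with Mki67 and Top2a left out of the sum, 1 point per cell, violins for cells with 0 UMIs and black lines for medians. The medians went from 1320 and 1399 at 0 UMIs to 3057 and 5073 at 1 UMI and 8314 and 15322 at exactly 2 UMIs.

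The microglial label was then checked against genes that the rule did not use. Most members carried C1qa, C1qb and C1qc, which encode the complement initiator C1q, and the receptors Cx3cr1 and Csf1r. C1qa was also found in 42.4% and 30.4% of cells with 2 or more Cd3 UMIs, so a C1qa UMI alone does not mark microglia. The share of UMIs was therefore used, for a set of 6 microglial identity genes that includes all those named. The set held at least 1% of the UMIs, with the plasma cell list under 1%, in 28 of 33 cells under control Ab and 45 of 59 under anti-CD9 Ab. The 2 limits were chosen after seeing the data. The remaining 5 and 14 cells missed a limit. Of these, 1 and 5 cells had fewer than 10 UMIs of every list of another cell type and missed only the 1% line, with identity shares of 0.989% under control Ab and 0.511% to 0.781% under anti-CD9 Ab. They held 1618 UMIs under control Ab and 587 to 18443 under anti-CD9 Ab, the deepest being a marked doublet. Shallow cells rarely reach 10 UMIs of a list, so this limit says little about them. It was also chosen after seeing the data. In others the markers of another cell type were high. Under control Ab 1 cell of 24233 UMIs held 105 UMIs of oligodendrocyte, 52 of oligodendrocyte precursor and 42 of astrocyte markers. A further 3 cells gave 12.6% to 35.5% of their UMIs to plasma cell genes, and 1 of these cells also gave 3.02% to the identity genes. In the anti-CD9 Ab library 1 such cell held 721 UMIs of Gzmc, a granzyme of cytotoxic lymphocytes, with 50 UMIs of NK cell markers. A further 2 cells held 34 and 102 UMIs of B cell markers, and 3 gave 15.6% to 32.3% of their UMIs to plasma cell genes. Another 2 held 12 and 23 UMIs of dendritic cell markers, with 39 and 18 of macrophage and monocyte markers. The remaining 1 held 12 UMIs of macrophage and monocyte markers and 23 of the gate gene Siglech. With these cells left out of both classes, 28 of 2263 (1.24%, 0.824 to 1.78) and 45 of 1061 (4.24%, 3.11 to 5.63) microglia were cycling. These 28 and 45 cells are called identity-checked members below. Marked doublets remained among them, 2 of 28 (7.14%) and 21 of 45 (46.7%), against 2.56% and 11.6% of identity-checked non-cycling cells.

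Markers of other cells moved with the members before that check, most of them through a few barcodes. The plasma cell list summed to 23575 CPM, over the pooled UMIs of the class, in the control Ab members and 9283 under anti-CD9 Ab, against 9256 and 1622 in non-cycling microglia, led by the immunoglobulin gene Igkc. Igkc was also found in 63.5% and 55.6% of cells of the T cell type, which do not make immunoglobulin. After the check the list summed to 234 and 330 CPM. NK cell markers summed to 2.77 and 130 CPM before it, 90.9% of the latter from 1 cell, and to 3.34 and 3.17 after it, and the B cell list went from 105 and 351 to 73.5 and 31.7 CPM. Of the 12 T cell markers that the rule did not use, 7 and 3 were at 0, and their sums were 49.9 and 77.7 CPM. Neutrophil genes summed to 1541 and 518 CPM, 79.7% of the first from 1 identity-checked cell with 443 UMIs of them, led there by S100a9. Non-cycling cells had 676 and 1815 CPM of these genes. The opposite order in the members rested on that 1 cell, a marked doublet with 443 of the 556 UMIs of the control Ab members. Slc1a3 was the most abundant of the astrocyte genes at 277 and 323 CPM, in 24 and 44 cells, while 4 of the 6 astrocyte genes were at 0 under anti-CD9 Ab. Macrophage and monocyte genes summed to 230 and 459 CPM, led by Plac8, with 4 and 3 of 10 at 0, against 185 and 805 CPM in non-cycling cells. In non-cycling cells the neutrophil and macrophage lists were thus both higher under anti-CD9 Ab, with median log2 ratios of 2.17 and 1.72, and their part in the results was not tested.

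The rule genes themselves and the other markers given for the cells were read next. Mki67 was detected in 25 of 33 and 47 of 59 members and Top2a in 28 and 52, at 230 and 398 CPM for Mki67 and 272 and 667 CPM for Top2a. Birc5 encodes survivin, a subunit of the chromosomal passenger complex, and had UMIs in 21 and 38 members, at 161 CPM against 3.22 in non-cycling cells under control Ab and 271 against 7.76 under anti-CD9 Ab. Cenpf, which encodes a large kinetochore protein, had UMIs in 16 and 26 members, at 99.8 against 1.72 CPM and 214 against 3.39 CPM. Stmn1, which encodes the microtubule-destabilizing protein stathmin, had UMIs in 30 and 48 members, at 657 against 44.0 CPM and 801 against 48.7 CPM. Members with UMIs of all 3 of these genes numbered 13 and 19, and members with none of them 2 and 7. In the thinned identity-checked members Stmn1 was found in 64.3% and 77.3% of cells, against 6.54% and 6.23% of non-cycling cells. Cells with 2 or more Cd3 UMIs had Stmn1 in 4.13% and 14.2% at median depths of 1622 and 2282 UMIs.

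Gene by gene, the UMIs of the cycling cells were summed and compared with those of the non-cycling cells of the same library, as the log2 ratio of CPM plus 5, among genes with a mean of at least 20 CPM. Of all genes compared, 3.22% under control Ab and 7.71% under anti-CD9 Ab were at least 2-fold higher in cycling cells, 0.806% and 3.23% were at least 2-fold lower, so 4.03% and 10.9% were 2-fold apart in either direction. Of the cell cycle genes, 67 of 73 that could be compared under control Ab and 118 of 121 under anti-CD9 Ab were at least 2-fold higher. Their median log2 ratios were 2.80 and 3.26, beside 0.01 over all genes compared in each library. Since the rule chose these cells by 2 genes of the same process and the low-value filter passed a gene mainly through its level in cycling cells, nothing is read from these counts or from the order of the lists below.

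Origin licensing genes summed to 413 CPM in cycling and 102 in non-cycling cells under control Ab and to 864 and 120 CPM under anti-CD9 Ab. Mcm3, a subunit of the replicative helicase, had 63.8 CPM in cycling and 22.7 in non-cycling cells of that library, and 111 and 24.3 CPM under anti-CD9 Ab. It was the only gene of its list to pass the filter under control Ab, against 11 genes under anti-CD9 Ab, where all 11 were at least 2-fold higher with a median log2 ratio of 2.52. Mcm6, another helicase subunit, went from 10.95 to 27.7 CPM (10 UMIs in 7 cells) and from 11.9 to 91.9 CPM (39 UMIs in 15 cells). These few UMIs set wide intervals, 0.17 to 1.84 and 1.97 to 3.04 on the log2 scale.

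DNA synthesis genes were at least 2-fold higher for 12 of 13 genes under control Ab and 25 of 25 under anti-CD9 Ab, with median log2 ratios of 2.01 and 2.79. Rrm2, the regulated subunit of the enzyme that makes deoxyribonucleotides, had 63.8 CPM in cycling against 1.07 in non-cycling cells, and 148 against 1.21 CPM under anti-CD9 Ab. Its log2 ratios were 3.50 (2.87 to 4.07) and 4.63 (4.13 to 5.03). Tk1, the thymidine kinase of dividing cells, had log2 ratios of 2.64 and 2.96, and Brca1, which acts in homologous recombination, of 2.64 and 3.45. Atad2, a chromatin-bound ATPase, was the most abundant gene of the list at 119 and 273 CPM.

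Mitotic genes fell into 3 lists, which are not ranked against the replication lists for the same reason. The kinase, cyclin and checkpoint list was at least 2-fold higher for 14 of 15 and 20 of 21 genes (medians 3.24 and 3.55), the kinetochore and condensin list for 14 of 14 and 25 of 25 (3.24 and 3.45), and the spindle and cytokinesis list for 18 of 18 and 24 of 24 (3.52 and 3.85). Aspm of the last list had 0 UMIs in non-cycling control Ab cells, and with Aspm at the bound set by 3 UMIs that median was 3.61. Kif11, the kinesin motor that pushes the spindle poles apart, went from 1.18 to 122 CPM under control Ab and from 1.94 to 290 CPM under anti-CD9 Ab, with UMIs in 16 of 33 and 39 of 59 cells. Its log2 ratios were 4.36 (3.88 to 4.80) and 5.41 (4.97 to 5.76). Ube2c, the ubiquitin-conjugating enzyme of the anaphase-promoting complex, had ratios of 3.75 and 4.40, Ccnb1, the mitotic cyclin B1, of 3.48 and 4.19, and Prc1, an organizer of the central spindle, of 3.93 and 4.66. Cenpe, a kinetochore motor, had ratios of 4.06 and 4.29.

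Replication chromatin genes were at least 2-fold higher for 8 of 12 and 13 of 15 genes, with medians of 1.44 and 2.35. H2az1, a histone variant gene that non-cycling cells also express, had 1236 against 329 CPM under control Ab and 1948 against 378 CPM under anti-CD9 Ab. Hmgb2, a chromatin protein abundant in dividing cells, had 324 against 73.9 and 893 against 91.9 CPM. Its log2 ratio of 2.06 (1.77 to 2.34) under control Ab and 3.21 (3.01 to 3.41) under anti-CD9 Ab did not overlap. Asf1b, a histone chaperone of S phase, had ratios of 3.19 and 3.49.

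Counted within cells, mitotic transcripts outnumbered replication transcripts in most members. The licensing and synthesis lists held 23.4% of the UMIs of these lists and the 3 mitosis lists under control Ab, and 26.9% under anti-CD9 Ab. Replication UMIs exceeded mitotic UMIs in 4 of 33 and 12 of 59 cells, and the reverse held in 28 and 45. The lists differ in length and abundance and Mki67 and Top2a are themselves most abundant in late phases, so these counts do not give phases. Per cell the replication share ranged from 1.59% to 69.4% under control Ab and from 0.885% to 68.2% under anti-CD9 Ab.

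To place these genes beside their regulatory sequence, the 250 bases upstream of each RefSeq start (assembly GRCm38.p6) were searched on both strands for E2F-type letters (TTTCCCGC, TTTGGCGC or TTTCGCGC) and for the CHR letters TTTGAA, whose opposite strand reads TTCAAA. E2F-type letters were found for 1.78% of 27025 genes with a promoter in the table and CHR letters for 18.3%. Of the cell cycle lists 118 of 140 genes matched the table. For the replication lists (licensing and synthesis with chromatin), 12 of 52 genes (23.1%) held E2F-type letters and 11 (21.2%) CHR letters, and for the mitosis lists 5 of 66 (7.58%) and 23 (34.8%). A 6-letter motif occurs often, and a match is neither a bound site nor a cause. Of the genes named in the text, Mcm6 was the only replication gene with E2F-type letters, and Kif11 and Prc1 were the mitosis genes with CHR letters and the largest ratios. Their stretches are shown 5′ to 3′ on the gene strand, with matches in capitals.
Mcm6, chr1:128359745-128359895, minus strand: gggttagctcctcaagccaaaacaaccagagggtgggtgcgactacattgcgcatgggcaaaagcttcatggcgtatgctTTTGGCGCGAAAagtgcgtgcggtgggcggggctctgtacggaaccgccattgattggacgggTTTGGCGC
Kif11, chr19:37376283-37376368, plus strand: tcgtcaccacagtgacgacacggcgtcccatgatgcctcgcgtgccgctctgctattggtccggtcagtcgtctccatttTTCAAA
Prc1, chr7:80294366-80294451, plus strand: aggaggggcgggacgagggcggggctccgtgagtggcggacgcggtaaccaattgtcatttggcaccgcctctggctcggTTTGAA
In Mcm6 TTTGGCGC began 110 and 47 bases before the start, and GCGCGAAA, the opposite strand of TTTCGCGC, overlapped the first of them at 106 bases. In Kif11 the CHR letters lay on the opposite strand 19 bases before the start, and in Prc1 on the gene strand 30 bases before 1 of its 2 listed starts.

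Over all genes outside the cell cycle lists with a mean of at least 50 CPM, the 8 with the highest ratios of cycling over non-cycling cells in both libraries included Neil3, Pclaf and Mzb1. Neil3, a DNA glycosylase that acts at replication forks, had 111 CPM in cycling and 0.32 in non-cycling control Ab cells, and 125 and 1.45 CPM under anti-CD9 Ab. Its log2 ratios were 4.44 (3.96 to 4.88) and 4.33 (3.81 to 4.77), and it was found in 18 and 30 members. Pclaf, a partner of the replication clamp PCNA, had 147 against 4.40 and 360 against 8.0 CPM (log2 ratios 4.01 and 4.81). Hjurp, the chaperone of the centromeric histone, had ratios of 2.24 and 2.87, the centrosomal gene Cep128 of 1.99 and 2.83, and H2az2, the second histone H2A.Z gene, of 1.97 and 2.16. Tubb4b, a beta-tubulin gene, had ratios of 2.54 and 2.78. Mzb1, a plasma cell gene, also met the criterion at 1.92 and 1.85, but it came from 3 and 4 cells and its ratios in identity-checked members were -1.10 and -1.37.

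**Figure D3:**
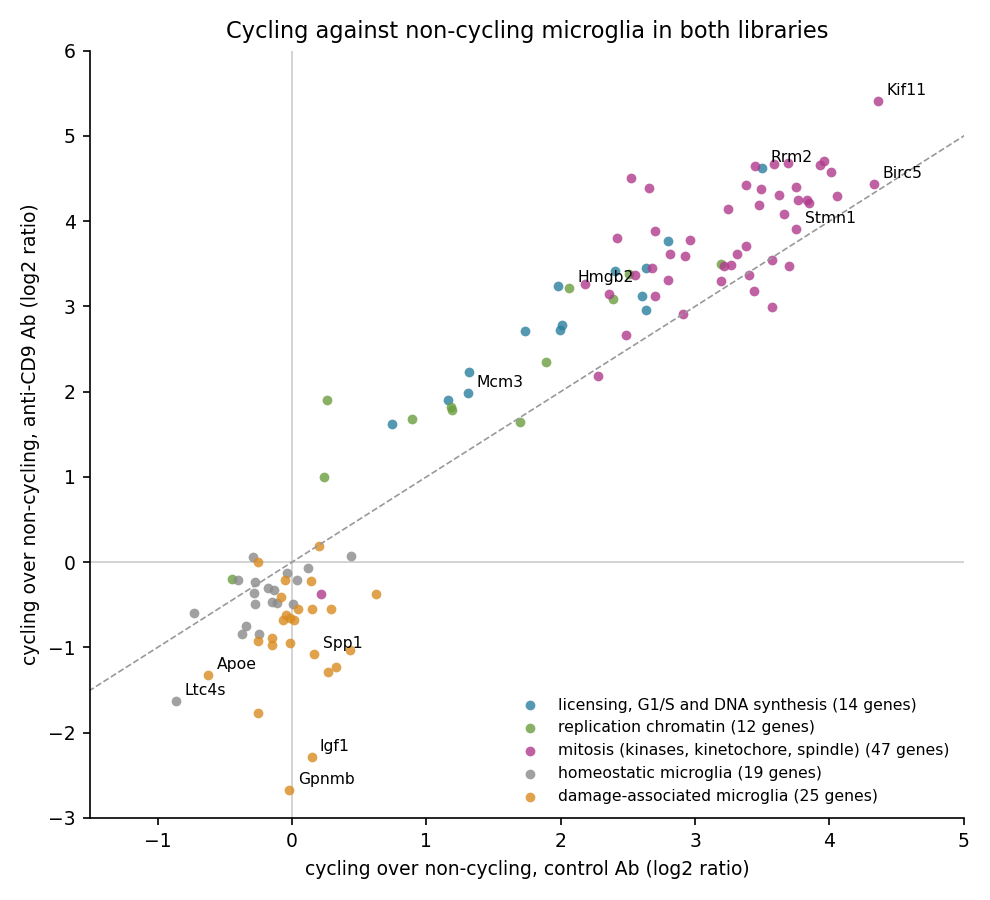
Log2 ratio of cycling over non-cycling microglia, computed from CPM plus 5, in the control Ab library (x axis) and the anti-CD9 Ab library (y axis), 1 point per gene compared in both libraries, coloured by list, with a dashed line where both ratios are equal. Kif11 lies at 4.36 and 5.41, most homeostatic genes lie near 0, and most damage-associated genes lie below 0 on the y axis.

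Regulators of the G1 exit showed no common direction. Of the D cyclins, CDK inhibitors and pocket proteins, 3 of 17 were at least 2-fold higher under control Ab and 5 of 18 under anti-CD9 Ab, where 1 was lower, with medians of 0.21 and 0.22. Cdkn2c, the CDK4 and CDK6 inhibitor p18, went from 13.6 to 94.2 CPM and from 15.3 to 106 CPM, with log2 ratios of 2.41 and 2.45. Rbl1, the E2F-binding pocket protein p107, had ratios of 1.23 and 2.19. Ccnd3, the D cyclin of many blood cells, was lower in cycling cells, with 166 against 332 CPM under control Ab and 443 against 665 CPM under anti-CD9 Ab, and ratios of -0.97 (-1.35 to -0.62) and -0.58 (-0.80 to -0.37).

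Growth genes were compared in the same way. Of the ribosome biogenesis list, 1 of 17 genes was at least 2-fold higher under control Ab (median -0.00, -0.64 to 0.63) and 6 of 16 under anti-CD9 Ab (median 0.81, 0.26 to 1.22). In identity-checked cells, where 7.63% of all genes compared were at least 2-fold higher under anti-CD9 Ab, the second count was 2 of 16 and the medians were -0.12 (-0.73 to 0.67) and 0.43 (-0.20 to 1.01). Between antibodies, 17 of 17 genes were higher under anti-CD9 Ab in cycling cells, beside 3977 of all 7230 genes compared. The median was 0.92 (0.29 to 1.57), and 4 genes were at least 2-fold higher, beside 8.63% of all genes compared. In identity-checked members 16 of 18 were higher, beside 3856 of 7022 genes. Among these 18, 1 was at least 2-fold higher, beside 7.83% of all genes, and the median was 0.45 (-0.37 to 1.26). Over all members, the antibody ratio was higher in cycling than in non-cycling cells for 16 of 16 genes, beside 49.5% of all genes compared in both classes. For 8 of them the counting intervals did not overlap, beside 3.7%. These 2 counts include the cells outside the identity check, without which the list sum under anti-CD9 Ab fell from 3168 to 2351 CPM. Ran, the GTPase of nuclear transport and spindle assembly, was past 2-fold between the classes in both libraries. It had 358 against 110 CPM and 544 against 128.5 CPM (log2 ratios 1.65 and 2.04). Npm1, a nucleolar chaperone, had -0.18 and 0.44.

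Most of the receptors and transcription factors that maintain microglia were lower in cycling cells, few of them by 2-fold. In the list of mitogen receptors, ligands and myeloid factors, 16 of 19 genes were lower under control Ab and 19 of 21 under anti-CD9 Ab. Over all genes compared, 3445 of 7072 and 3510 of 7092 were lower. The medians were -0.18 (-0.42 to 0.09) under control Ab and -0.46 (-0.72 to -0.16) under anti-CD9 Ab. Under control Ab 0 of 19 genes were 2-fold apart. Under anti-CD9 Ab 2 of 21 were at least 2-fold lower, beside 3.23% of all genes. In identity-checked cells the medians were -0.15 (-0.36 to 0.12) and -0.30 (-0.77 to 0.02), and both brackets spanned 0. There 15 of 19 and 19 of 20 genes were lower, beside 3265 of 6919 and 3305 of 6970 of all genes compared. Csf1r, the receptor on which microglial survival depends, had 760 against 862 CPM and 582 against 720 CPM, with UMIs in 30 of 33 and 47 of 59 members. Mef2c, a transcription factor of microglia, was the most abundant gene of the list at 1344 and 834 CPM, with ratios of -0.04 and -0.13. Cebpa, a myeloid transcription factor, had ratios of -0.39 and -1.12.

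Homeostatic genes were detected throughout the members. Of the 19 genes of this list that the rule did not use, 15 were lower in cycling than in non-cycling cells under control Ab and 17 under anti-CD9 Ab. Over all genes compared, 3445 of 7072 and 3510 of 7092 were lower. The medians were -0.24 (-0.41 to 0.07) and -0.36 (-0.66 to -0.17). At least 2-fold lower were 0 and 1 of the 19, beside 0.806% and 3.23% of all genes. In identity-checked cells the medians were -0.14 (-0.36 to 0.13) and -0.32 (-0.57 to 0.001), and both brackets spanned 0. There 15 and 17 of the 19 genes were lower, beside 3265 of 6919 and 3305 of 6970 of all genes compared. Cx3cr1, the fractalkine receptor, had 1253 against 1377 and 874 against 1095 CPM, with UMIs in 32 of 33 members of the control Ab library and 49 of 59 under anti-CD9 Ab. Ltc4s, which encodes leukotriene C4 synthase, was the 1 gene past 2-fold under anti-CD9 Ab, with 23.6 against 83.2 CPM and a ratio of -1.63 (-2.45 to -0.85), and had -0.86 under control Ab. Of the gate genes, Tmem119 had 236 against 262 and 247 against 267 CPM, and Sall1, the transcription factor of microglial identity, 158 against 223 and 130 against 179 CPM. These 2 gate genes chose the cells, so their levels are a description.

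Damage-associated genes set the 2 libraries apart. This list holds genes of the microglial state seen in injury and degeneration, such as Apoe, a lipid carrier, Spp1, the secreted phosphoprotein osteopontin, Trem2, a lipid receptor, and Cd9 itself. Under control Ab the 25 genes had a median log2 ratio of -0.01 between cycling and non-cycling cells, with 12 higher, 13 lower and 0 past 2-fold. Under anti-CD9 Ab the median was -0.68, with 23 of 25 lower and 8 past 2-fold. Over all genes compared in that library, 3510 of 7092 were lower and 3.23% at least 2-fold lower. In identity-checked cells, where 1.14% and 3.01% of all genes compared were at least 2-fold lower, the medians were 0.07 and -0.66, with 0 and 6 genes 2-fold lower. Without the marked doublets they were -0.00 and -0.79, and with the mitochondrial limit of 2% they were 0.12 and -0.67.

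Spp1 was read next in single cells. Per cell its level in cycling cells of the control Ab library had a median of 15715 CPM, a lowest value of 0 and a highest of 141768, with UMIs in 32 of 33 cells. Under anti-CD9 Ab the median was 0 and the highest value 50662, with UMIs in 23 of 59 cells. Summed levels were 25826 CPM in cycling and 23025 in non-cycling cells under control Ab, and 3168 and 6689 CPM under anti-CD9 Ab, so the log2 ratios of cycling over non-cycling were 0.17 (0.14 to 0.20) and -1.08 (-1.16 to -1.0). Medians per cell set the control Ab classes further apart than these sums. In identity-checked cells they were 16048 CPM in cycling and 2537 CPM in non-cycling cells under control Ab. Under anti-CD9 Ab both medians were 0. A single cell supplied 33.0% of the Spp1 UMIs of the anti-CD9 Ab members. Of the T cells, 79.7% had a Spp1 UMI under control Ab at 1448 CPM and 26.4% under anti-CD9 Ab at 273 CPM, at median depths of 1622 and 2282 UMIs. Whether these UMIs were free RNA or the T cells' own was not tested. Under anti-CD9 Ab 8 members with 10 or more Spp1 UMIs held 1315 of the 1345 UMIs, and the other 51 members together had 83.0 CPM. Under control Ab 25 members with 10 or more held 9286 of 9317 UMIs, and the other 8 together had 438 CPM.

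Cd9, the antibody target, was found in all 33 cycling cells under control Ab and in 51 of 59 under anti-CD9 Ab. Per cell the medians were 3836 (range 165 to 10041) and 796 (range 0 to 5010) CPM. Summed, cycling and non-cycling cells had 3850 and 4041 CPM under control Ab and 1076 and 1731 CPM under anti-CD9 Ab, with log2 ratios of -0.07 (-0.15 to 0.01) and -0.68 (-0.82 to -0.55). The Cd9 transcript was thus lower in the anti-CD9 Ab library in both classes, and the ranges of single cells overlapped. T cells had 186 and 122 CPM of Cd9, with UMIs in 22.8% and 18.0% of them.

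**Figure D4:**
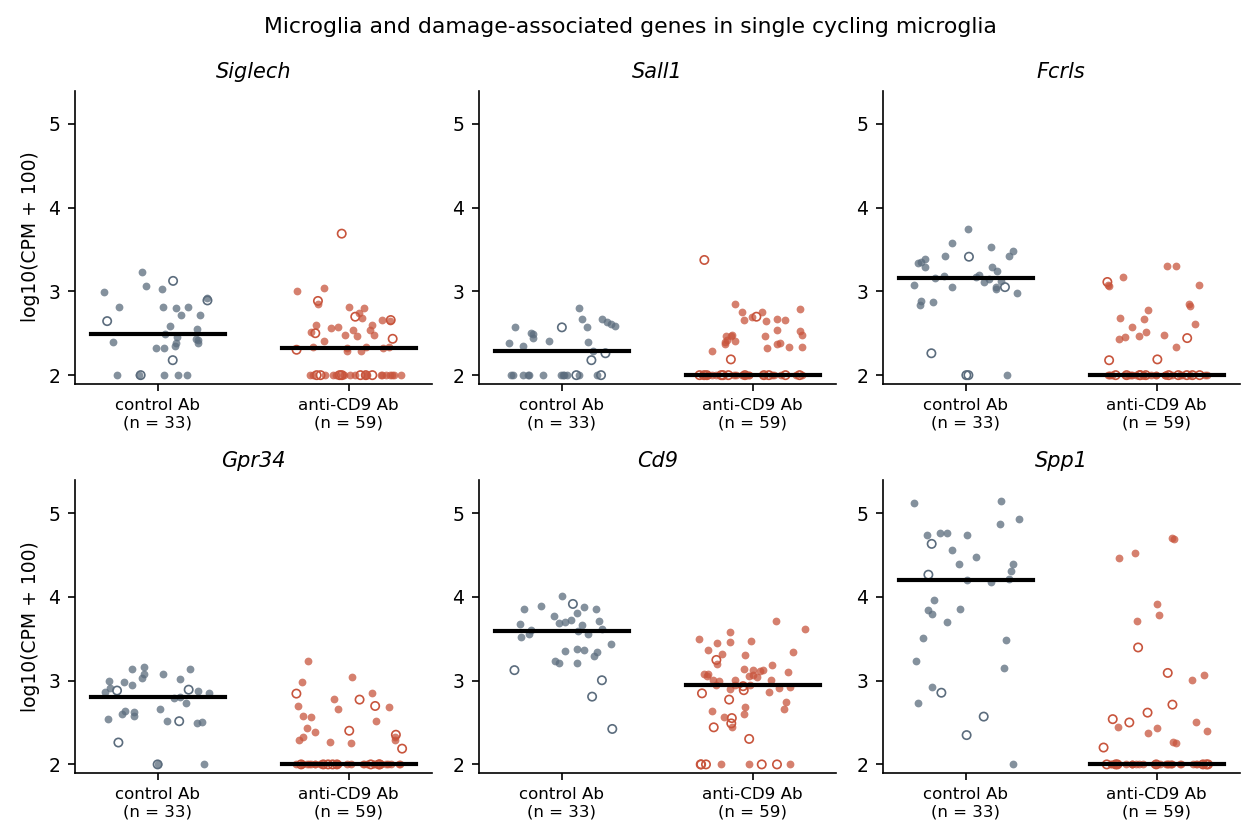
Level in each cycling cell (y axis, log10 of CPM plus 100) of Siglech, Sall1, Fcrls, Gpr34, Cd9 and Spp1, a panel each, in the control Ab and anti-CD9 Ab libraries (x axis), 1 point per cell, with open circles for cells outside the identity-checked set and bars for medians. Spp1 and Fcrls have a median of 0 UMIs under anti-CD9 Ab, against 15715 and 1362 CPM under control Ab, and Siglech, a sialic acid-binding lectin gene of the gate, has medians of 213 and 110 CPM. The ranges of single cells overlap between the libraries for all 3 of these genes.

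Set side by side between antibodies, cycling microglia differed more in these genes than non-cycling microglia did. Of all genes compared, 8.63% were at least 2-fold higher and 7.23% at least 2-fold lower under anti-CD9 Ab in cycling cells, and 3.27% and 2.74% in non-cycling cells, where the sums rest on more UMIs. In cycling cells 15.9% were 2-fold apart in either direction. Of the damage-associated genes 18 of 25 were at least 2-fold lower in cycling cells, with a median log2 ratio of -1.75, and 11 of 25 in non-cycling cells, with a median of -0.92. All genes compared had medians of 0.07 and 0.02. The ratio was lower in cycling than in non-cycling cells for 24 of the 25 genes, Itgax being the exception, beside 50.5% of all genes compared in both classes. For 19 of them the 2 counting intervals did not overlap, beside 4.64% of all genes. In identity-checked cells, with 6.64% and 1.87% of all genes compared at least 2-fold lower, 19 and 10 of the 25 were at least 2-fold lower, with medians of -1.56 and -0.90.

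Lpl, the lipoprotein lipase gene, had 712 CPM in cycling cells under control Ab and 25.9 under anti-CD9 Ab (6 of 59 cells), a log2 ratio of -4.54 (-5.34 to -3.78), against -3.53 in non-cycling cells. Igf1, an insulin-like growth factor, had 222 and 4.71 CPM, the latter from 2 UMIs in 2 cells, and Gpnmb, a transmembrane glycoprotein of lipid-laden phagocytes, had 122 and 4.71 CPM from 2 UMIs likewise. Their ratios of -4.55 (-5.40 to -3.32) and -3.71 (-4.61 to -2.45) lay below those of non-cycling cells, -2.11 and -1.05. Trem2 went from 2071 to 612 CPM, Cst7, a cystatin gene, from 1095 to 207, Ctsd, the lysosomal protease cathepsin D, from 7237 to 2049, and Apoe from 10264 to 4275. Axl, a receptor for apoptotic material, had 125 and 75.4 CPM (-0.69, -1.34 to -0.05), and Cd52, a small surface glycoprotein gene, was the 1 gene of the list that was higher, at 582 and 865 CPM (0.57).

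**Figure D5:**
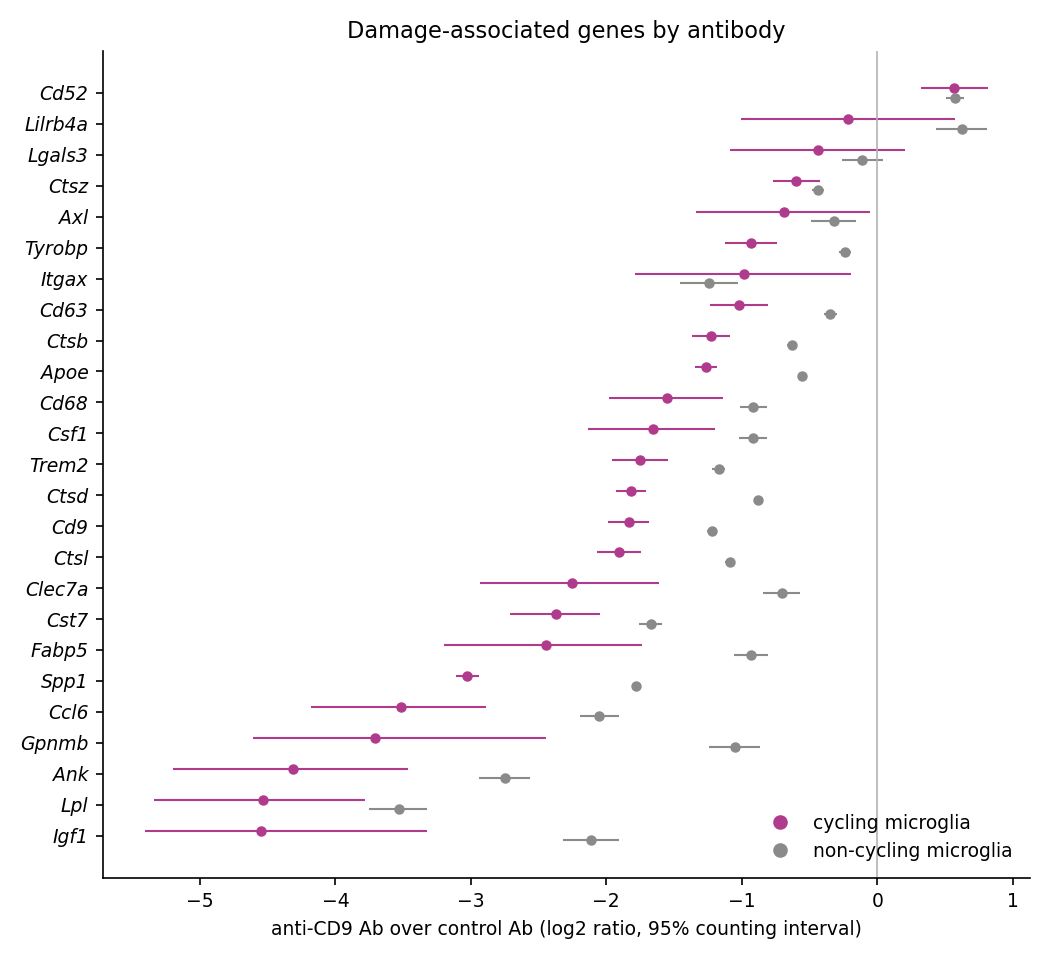
Log2 ratio of anti-CD9 Ab over control Ab (x axis, from CPM plus 5) for the 25 damage-associated genes (y axis) in cycling and in non-cycling microglia, with bars for 95% intervals of counting error. The point of cycling cells lies left of that of non-cycling cells for 24 of 25 genes, with medians of -1.75 and -0.92.

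The genes of the microglial gate chose the cells, so their levels in the 2 libraries are a description. In identity-checked members Fcrls, an Fc receptor-like gene of microglia, was found in 27 of 28 cells under control Ab and 19 of 45 under anti-CD9 Ab, and Gpr34, a lysophosphatidylserine receptor, in 26 of 28 and 19 of 45. At 2000 UMIs per cell Fcrls was found in 92.9% (76.5 to 99.1) and 34.1% (20.5 to 49.9), and Gpr34 in 53.6% and 25.0%. Tmem119 was found at that depth in 32.1% (15.9 to 52.4) and 52.3% (36.7 to 67.5), Sall1 in 25.0% and 27.3%, and P2ry12, the purinergic receptor of surveying microglia, in 82.1% and 65.9%. Summed over all members Fcrls had 1455 and 205 CPM, a log2 ratio of -2.80, against -1.77 in non-cycling cells, and Gpr34 -2.20 against -1.33. No T cell without microglia gate UMIs can hold these genes, so that background could not be read for them. Of the 19 homeostatic genes outside the rule, 2 were at least 2-fold lower in cycling cells (median -0.60), near the 7.23% of all genes compared, and 3 in non-cycling cells (median -0.30), beside 2.74%. Sparc, a secreted matrix protein gene of this list, had 1394 and 466 CPM in cycling cells.

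Spp1 counts were also set beside the gate gene Fcrls, again as a description, since Fcrls helped to choose the cells. With 10 Spp1 UMIs as a dividing line, a range of counts and not a cell type, 23 of 28 identity-checked members lay above it under control Ab and 8 of 45 under anti-CD9 Ab. T cells had 1448 CPM of Spp1 under control Ab and 273 CPM under anti-CD9 Ab. The fixed line thus lay closer to the T cell level under control Ab. Cells within 5 to 14 UMIs of Spp1 numbered 3 and 1. All 8 of these anti-CD9 Ab members had Fcrls UMIs, against 11 of the other 37, and under control Ab 22 of the 23 and 5 of the other 5 had them. Under anti-CD9 Ab the median Cd9 count was 27.5 UMIs in the 8 and 5 UMIs in the 37, at median depths of 8595 and 6565 UMIs. Sall1 was found in 6 of the 8 and 20 of the 37.

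Cell cycle genes were higher in the anti-CD9 Ab members. The rule chose these members by Mki67 and Top2a, with medians of 3 UMIs under control Ab and 6 under anti-CD9 Ab. A gene could also pass the low-value filter through the anti-CD9 Ab members alone, so the values of members below are a description. Of 130 genes compared, 56 were at least 2-fold higher, beside 8.63% of all genes compared, and 0 at least 2-fold lower, beside 7.23%. Their median log2 ratio was 0.96, beside 0.07 over all genes, and the summed level was 9621 CPM under control Ab and 18192 under anti-CD9 Ab. In non-cycling cells 20 genes passed the filter, 1 of them 2-fold higher, beside 3.27% of all genes, with a median of 0.12. The DNA synthesis list had a median of 1.12, with 17 of 25 genes past 2-fold, and the spindle list 0.79, with 10 of 24. In identity-checked members, where 7.83% of all genes were at least 2-fold higher, these medians were 0.90 and 0.997 with 11 of 25 and 12 of 24 genes, so the order of the 2 lists changed. Spc24, a kinetochore gene, had 19.4 and 120 CPM with UMIs in 5 and 31 cells, Lig1, the replicative DNA ligase, 22.2 and 106 CPM, and Tpx2, a spindle assembly factor, 72.1 and 233 CPM.

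Interferon genes were also mostly higher under anti-CD9 Ab, in cycling and in non-cycling cells. Of 18 interferon genes compared in cycling cells, 10 were at least 2-fold higher under anti-CD9 Ab, beside 8.63% of all genes compared, with a median log2 ratio of 1.14 (0.25 to 1.83). In non-cycling cells 12 of 19 were, beside 3.27% of all genes, with a median of 1.35 (1.21 to 1.496). In cycling cells the bracket of single-gene bounds reached below 0 without the marked doublets (0.92, -0.14 to 1.70) and without cells low in ribosomal UMIs (0.86, -0.08 to 1.73). Between cycling and non-cycling cells of a library the list had medians of 0.00 under control Ab and -0.35 under anti-CD9 Ab, and 0.12 and 0.04 after the identity check. Cxcl10, a chemokine that draws activated T cells, was found in 2 of 33 and 32 of 59 members at 5.54 and 610 CPM, a log2 ratio of 5.87 (4.61 to 6.78). In non-cycling cells it had 104 and 468 CPM, a ratio of 2.11. T cells had Cxcl10 in 3.04% and 10.98% of cells at 51.2 and 192 CPM, so the control Ab members lay below that level and the anti-CD9 Ab members above it.

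Saa3, an acute-phase gene, was found in 10 of 33 and 48 of 59 members at 80.4 and 3270 CPM (5.26, 4.76 to 5.80), and in T cells in 2.05% and 51.6% at 20.7 and 803 CPM. Cxcl13, a B cell chemokine gene, was found in 6 and 32 members at 72.1 and 1053 CPM, and in 0.691% and 4.55% of T cells. Levels of both genes in T cells were thus also higher in the anti-CD9 Ab library, and the part of free RNA in the members' values was not tested. Ccl5, a chemokine of activated lymphocytes and myeloid cells, had 63.8 and 1324 CPM in members. T cells transcribe Ccl5 themselves, so they give no background for it. Cxcl2, a neutrophil chemokine gene, had 0 UMIs in the control Ab members and 471 CPM under anti-CD9 Ab, at least 56.7-fold higher than a floor of 3 UMIs over the group, with 112 of its 200 UMIs in 1 cell. T cells had Cxcl2 in 0.210% and 18.0% of cells at 2.09 and 393 CPM, and the part of free RNA in this difference was not tested. The cell adhesion gene Ctnna3 had 549 CPM in 11 of 33 control Ab members and 0 UMIs under anti-CD9 Ab, at least 77.7-fold lower. Other extremes came mostly from a few barcodes outside the identity-checked set, such as Gzmc (721 UMIs in 1 cell under anti-CD9 Ab) and Ighg2b, an immunoglobulin heavy chain gene (3 cells under control Ab).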

How the data were processed

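Per the file headers and the submitters' processing notes, the deposited matrices hold UMI counts per gene and cell from Cell Ranger 8.0.0 on GRCm39; the methods of the study name another version and an earlier build, and which is right was not settled. The libraries were made with the 10x Genomics 3′ v3.1 kit from living CD45+ cells. The counts were used as the authors deposited them, with 26 repeated gene symbols kept apart by their identifiers. The 2 libraries held 12245 and 15173 barcodes and 38042608 and 40825201 UMIs, of which 11690 and 14455 barcodes passed the filters on genes and mitochondrial UMIs. The members, the gene lists and the comparisons were chosen with earlier results of these data known.

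UMIs were summed over the cells of a class, scaled to 1000000 UMIs of the class (CPM) and compared as log2(CPM + 5) among genes with a mean of at least 20 CPM over the 2 classes compared; this scale understates changes of low genes. Rule genes were left out of all list counts. No test was run, since each antibody had a single library. Intervals are exact Poisson or Clopper-Pearson, and Newcombe for a difference, at the 95% level, and cover counting error only. Brackets beside a list median are the medians of the bounds of its single genes. Doublets were predicted with simulated doublets and nearest neighbours in 30 principal components of 2000 variable genes, at 0.8% of kept cells per 1000 barcodes, which marked 1145 and 1755 cells; they were kept in the main analysis. Named genes were the given markers, the rule genes, Cd9, up to 4 genes of each list with the largest ratio and its most abundant gene, and the 8 highest and 8 lowest genes of each comparison, at 50 CPM or more outside the cell cycle lists and 100 CPM or more between antibodies; Aspm, Axl, Cst7, Ctsd, Itgax and Trem2 fall outside this rule and were chosen after their values were seen. The limits of the identity check were chosen after seeing the data. Some items are not reported here. Promoters came from RefSeq tables of GRCm38.p6 and were matched by symbol; the matrices carry no coordinates. Alternatives were filters, gates, thresholds, pseudocounts, thinning and equal weight per cell. The scripts, tested on simulated data, used NumPy 2.4.6 and pandas 2.3.3 in Python 3.11.15, with SciPy 1.17.1 for intervals, scikit-learn 1.9.0 for doublets and Matplotlib 3.10.9 for figures.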

Additional observations from a re-analysis of the deposited data

How the results depend on the processing

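Of 233 values recomputed under an alternative, 189 stayed within their counting interval or bracket, or within 1.5 times the main count, and 44 moved. For list medians the bracket of single-gene bounds was used, which does not measure the error of a median. The damage-associated median between cycling and non-cycling cells under control Ab was -0.01, with a bracket of -0.17 to 0.21. It was above 0 under some alternatives, with a range of -0.05 to 0.32. The cycling share of microglia under control Ab, 1.32%, was 3.33% with 1 UMI of Mki67 and Top2a as threshold, 1.92% in cells with at least 2000 UMIs and 0.132% with cells thinned to 1000 UMIs. Under anti-CD9 Ab, 4.54% became 7.78% with 1 UMI, 3.39% with 3 UMIs, 2.77% with a mitochondrial limit of 2%, 3.05% without marked doublets, and 2.50% and 0.738% when thinned to 2000 and 1000 UMIs before the gate. The difference of 3.22 points was 1.60, 1.85, 1.58 and 0.606 points under the last 4 of these settings. Cell cycle lists, cycling over non-cycling, had medians of 2.80 and 3.26, which were 3.71 and 3.88 with a pseudocount of 1 CPM and 1.77 and 2.07 with 20 CPM; under control Ab the median was 2.02 with the threshold of 1 UMI and 2.16 with no filter on genes. With each cell weighing the same, medians under control Ab were -0.43 for homeostatic and 0.32 for damage-associated genes between cycling and non-cycling cells, and the antibody medians of damage-associated genes were -1.44 in cycling and -0.78 in non-cycling cells. In non-cycling cells the latter was -1.05 without cells low in ribosomal UMIs, the homeostatic median -0.21 with a gate of 4 UMIs, and the interferon median 1.08 without doublets, 1.20 with a pseudocount of 20 and 1.54 at 50 CPM. Over all alternatives the damage-associated median between antibodies lay between -1.97 and -1.44 in cycling cells and between -1.05 and -0.78 in non-cycling cells, and the median of cycling over non-cycling cells under anti-CD9 Ab between -0.81 and -0.58. Genes at least 2-fold apart between cycling and non-cycling cells under control Ab, 285, were 520 with the 2% limit, 577 and 108 with thresholds of 3 and 1 UMI, 150 with a pseudocount of 20, 101 at 50 CPM, 1092 with no filter and 625 with equal weights. Under anti-CD9 Ab, 776 became 1293 with the 2% limit, 1239 without doublets, 455 with a pseudocount of 20, 334 at 50 CPM and 1554 with no filter. Between antibodies in cycling cells, 1147 became 1756 with the 2% limit, 642 with a pseudocount of 20, 540 at 50 CPM and 2995 with no filter. No paired analysis was possible because each antibody had 1 library. The members number 33 and 59, so genes under about 20 CPM rest on fewer than 10 UMIs, and the spread between mice is unknown.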
